A study of Homo sapiens with 6 samples.

Results

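The genes described here are all those that the deposited annotation places on human chromosome 5, which are 1435 of 30330 genes in the files. They were chosen by position, and the chromosome itself was selected on the fold changes of resistant against control cells in these same libraries. All values below from that comparison are therefore a description, and no test of the chromosome's shift is given. NCI-H1975 is a line of human lung adenocarcinoma cells whose mutated EGFR, a growth factor receptor kinase, is blocked by osimertinib (OSI). RNA was sequenced from 3 control libraries of NCI-H1975 cells and 3 libraries of H1975/OSI, a line derived from it by stepwise exposure to OSI at 0.03, 0.1, 0.3, 1 and 3 µM over 7 months, with no other treatment or genetic change stated for either group. The labels give 1 resistant line and do not say whether it is a clone, whether drug was present at harvest or whether replicates were separate cultures, so the spread between libraries may be technical.

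Genes that lie next to each other on a chromosome can share its copy number, its chromatin domains and its enhancers, and large tandem families such as the protocadherins also share promoter control. Human chromosome 5 carries a short arm that ends near TERT, the catalytic subunit of telomerase, and a long arm with the duplicated SMN region, the cytokine genes around IRF1, and the protocadherin clusters. DNA copy number and chromatin were not analysed here. In bulk RNA, fewer cells of a type and less RNA per cell cannot be told apart.

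The libraries held between 15174126 and 16588479 reads on genes, of which 641468 to 677975 in resistant and 802610 to 864552 in control libraries fell on chromosome 5. Resistant library 1 was unlike the others of its group: a chi-square per gene on the reads was 10.8 and 12.1 against them, beside 2.32 between those libraries and 2.43 to 3.66 among controls. Mitochondrially encoded genes took 5.33 to 5.66% of reads in resistant and 6.46 to 7.34% in control libraries. All 10 lung epithelium markers were in the files, with a summed value of 42922 to 50321 in resistant and 60121 to 63654 in control libraries (SFTPB at 10 or less). Leukocyte markers summed to 236 to 287 and 387 to 392, with PTPRC and CD3E at 0 or not listed. LYZ and CD68 were at 10 or less, so the sum was mostly CD14, a chromosome 5 gene itself called lower. Endothelial markers summed to 558 to 753 and 293 to 333, with VWF and CLDN5 at 10 or less. The part of these differences in the results was not tested.

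The promoters of 4 genes are shown as examples of lowered, raised and unmoved genes. CCNB1 had the smallest adjusted p-value in the 10 Mb bin with the lowest median, and PIK3R1 was higher in the same bin. PJA2 was the well-expressed gene nearest to no change. Among the lowered genes named by the rule given under processing, IL7R had the promoter with fewest CpG for its C and G content. Each promoter runs 5′ to 3′ on the gene's own strand, from 250 bases before to 50 bases after the start in RefSeq (GRCh38.p14). Capitals mark each CpG, and in IL7R, which has none, they mark TATAAA. The windows are chr5:69166900-69167199 on the plus strand for CCNB1, chr5:68215506-68215805 on the plus strand for PIK3R1, chr5:109409925-109410224 on the minus strand for PJA2 and chr5:35856641-35856940 on the plus strand for IL7R, the last lying within the gene as the files bound it.
CCNB1: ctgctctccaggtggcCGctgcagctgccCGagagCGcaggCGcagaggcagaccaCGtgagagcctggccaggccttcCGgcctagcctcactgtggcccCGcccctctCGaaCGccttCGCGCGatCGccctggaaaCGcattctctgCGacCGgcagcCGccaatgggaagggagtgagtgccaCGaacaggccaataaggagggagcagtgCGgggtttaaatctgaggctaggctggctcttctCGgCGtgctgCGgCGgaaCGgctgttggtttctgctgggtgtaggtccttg
PIK3R1: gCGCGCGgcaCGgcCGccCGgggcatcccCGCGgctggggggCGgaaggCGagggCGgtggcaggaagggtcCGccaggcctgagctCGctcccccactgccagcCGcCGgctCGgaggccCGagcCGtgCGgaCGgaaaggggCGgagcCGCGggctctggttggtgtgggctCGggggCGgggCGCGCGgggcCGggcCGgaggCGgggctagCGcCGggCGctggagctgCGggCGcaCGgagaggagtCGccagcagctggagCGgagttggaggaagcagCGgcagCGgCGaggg
PJA2: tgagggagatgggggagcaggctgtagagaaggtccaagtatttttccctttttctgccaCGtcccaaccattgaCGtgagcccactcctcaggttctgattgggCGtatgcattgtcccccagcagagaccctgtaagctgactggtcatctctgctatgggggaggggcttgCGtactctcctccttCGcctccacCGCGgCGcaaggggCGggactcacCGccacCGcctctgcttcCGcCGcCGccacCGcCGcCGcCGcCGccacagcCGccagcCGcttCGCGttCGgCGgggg
IL7R: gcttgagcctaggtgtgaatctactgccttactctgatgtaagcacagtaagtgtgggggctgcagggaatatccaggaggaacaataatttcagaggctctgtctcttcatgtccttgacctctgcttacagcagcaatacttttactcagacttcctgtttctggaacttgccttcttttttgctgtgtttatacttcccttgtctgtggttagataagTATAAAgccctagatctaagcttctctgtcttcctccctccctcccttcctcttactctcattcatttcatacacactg
The CCNB1 window held 24 CpG, the PIK3R1 window 42, the PJA2 window 25 and the IL7R window 0. Promoters rich and poor in CpG thus stood among the lowered genes, and promoters rich in CpG stood among lowered, raised and unmoved genes.

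Chromosome 5 was lower in resistant cells as a whole. Its genes took 4.49, 4.41 and 4.48% of the nuclear normalised value in resistant libraries 1 to 3 and 5.51, 5.48 and 5.59% in control libraries 1 to 3. The groups did not overlap, and the resistant mean of 4.46% ± 0.042 (SD, n = 3) was 0.807 times the control mean of 5.53% ± 0.060 (SD, n = 3). Fold changes per gene were taken as the difference of mean log2(value + 1), resistant minus control, over 1139 chromosome 5 genes with a value of 1 or more in at least 3 libraries. The other 296 genes, 44 of them protein coding, were not tested, and 10 genes passed the filter only through the resistant and 14 only through the control libraries. The median log2 fold change of the tested genes was -0.35, against 0.03 for the other autosomes, a difference of -0.38.

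By limma on all 24560 tested genes of all chromosomes, with an adjusted p under 0.05, 449 chromosome 5 genes were called lower (39.4%), where 21.1% of all tested genes were called lower. Another 92 were called higher (8.08%), where 20.4% of all tested genes were. Resistant libraries lay wholly below the controls for 506 genes (44.4%, against 25.4% of all tested genes) and wholly above for 121 (10.6%, against 24.7%). Since the chromosome was selected on this contrast, nothing is read from these shares. Changes past 2-fold were fewer, at 110 genes lower and 45 higher on chromosome 5, of 1404 and 1930 among all tested genes. Per library, the median over chromosome 5 of the log2 value minus the gene's mean was -0.15, -0.20 and -0.16 in resistant and 0.20, 0.17 and 0.21 in control libraries, so each library of a group showed it.

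Genes with a mean of 50 or more over the 6 libraries carried less counting noise, and 605 chromosome 5 genes reached that level. Of these, 489 (80.8%) had a log2 fold change below 0, with 385 called lower, 54 called higher and 166 not called. These are 63.6% lower and 8.93% higher, where the other autosomes at the same level had 51.6% below 0, 32.1% called lower and 29.2% called higher. The chromosome 5 median of -0.41 was the lowest of 23 chromosomes. Chromosome 17 came next at -0.36, followed by chromosomes 10 and 2 at -0.16, and chromosome 13 was highest at 0.12. Chromosomes 5 and 17 were therefore close in their medians but not in their spread, since the middle 50% of genes spanned 0.57 on chromosome 5 and 0.80 on chromosome 17.

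**Figure D1:**
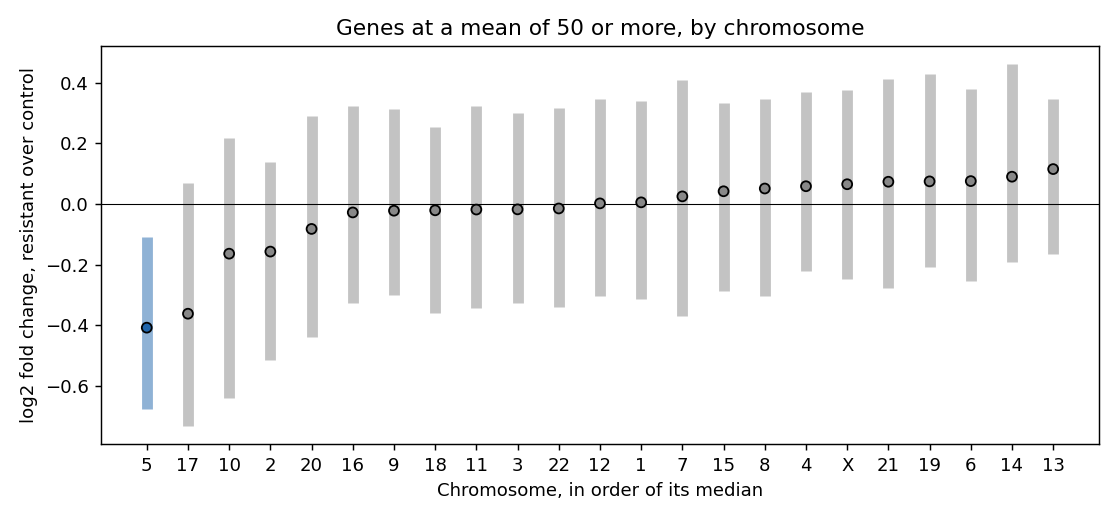
Median log2 fold change (resistant over control, points) with the middle 50% of genes (bars) for genes at a mean of 50 or more, for each of 23 chromosomes in order of the median. Chromosome 5, in blue, has the lowest median at -0.41, next to chromosome 17 at -0.36.

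The difference from the other autosomes was present across the range of fold changes and was not set by a tail of strongly lowered genes. At the 5th percentile chromosome 5 stood at -1.28 and the other autosomes at -0.95. At the 95th percentile the values were 0.47 and 1.08. The gap was -0.33 at the lower end, -0.39 at the median and -0.60 at the upper end, so the genes that were higher in resistant cells were also less high on chromosome 5. Across adjacent pairs of these genes, the fold changes of neighbours had a Pearson correlation of 0.05 on chromosome 5 (604 pairs), against 0.05 to 0.31 on the other autosomes. Pairs share a gene with the next pair and all share the 6 libraries. Beyond the common shift, next neighbours thus resembled each other little.

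**Figure D2:**
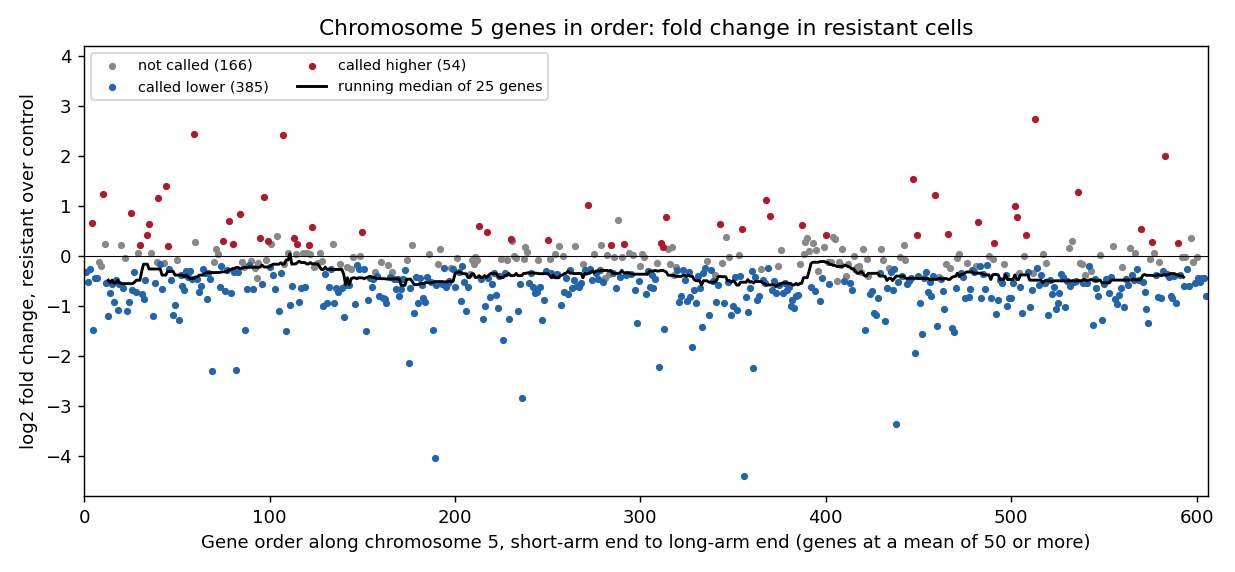
Log2 fold change (resistant over control) of the 605 chromosome 5 genes at a mean of 50 or more, in order from the short-arm end, with a running median of 25 genes (line). The 385 genes called lower lie along the whole order, with 54 called higher scattered among them.

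Along the chromosome, the lower values were spread over nearly all of its length. In 19 bins of 10 Mb by gene start, every median was below 0. Those from 20 to 30 Mb and from 120 to 130 Mb were close to 0, at -0.016 and -0.019. In 16 bins over 31.7% of the tested genes were called lower, which is 1.5 times the share over all tested genes. The bins from 40 to 50 Mb and from 50 to 60 Mb lay between, with 27.0 and 21.3% called lower, and the bin from 20 to 30 Mb, a gene desert with 10 tested genes, had 20%. The lowest median was -0.48 from 60 to 70 Mb (61 genes, 30 called lower and 1 higher). It was followed by -0.44 from 130 to 140 Mb (117 genes, 52 and 9), -0.43 from 180 Mb to the end (27 genes, 10 and 1), and -0.42 from 70 to 80, 150 to 160 and 170 to 180 Mb. The short arm, to 48 Mb, had a median of -0.23 over 214 genes (33.6% called lower), and the long arm -0.37 over 925 genes (40.8%).

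The libraries gave the same picture in most bins. From 60 to 70 Mb the median deviations were -0.23, -0.26 and -0.22 in resistant and 0.24, 0.21 and 0.41 in control libraries. From 170 to 180 Mb they were -0.20, -0.24 and -0.21 against 0.23, 0.22 and 0.21. The groups did not overlap in 16 of the 19 bins. Non-overlap of such medians is not particular to chromosome 5. Over the other autosomes together they were 0.027, 0.025 and 0.023 against 0.006, 0.009 and 0.002, also without overlap. No such count was made for bins of other chromosomes. On chromosome 5 the groups overlapped from 20 to 30 Mb, where resistant libraries stood at 0.08, 0.06 and -0.23 and controls at 0.00, 0.07 and 0.03. From 50 to 60 Mb the values were 0.01, -0.10 and -0.07 against 0.01, -0.02 and 0.11, and from 120 to 130 Mb they were -0.03, -0.03 and 0.01 against 0.09, -0.01 and 0.18. Resistant library 1 was the least lowered of its group from 90 to 100 Mb, at -0.06 beside -0.33 and -0.19.

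**Figure D3:**
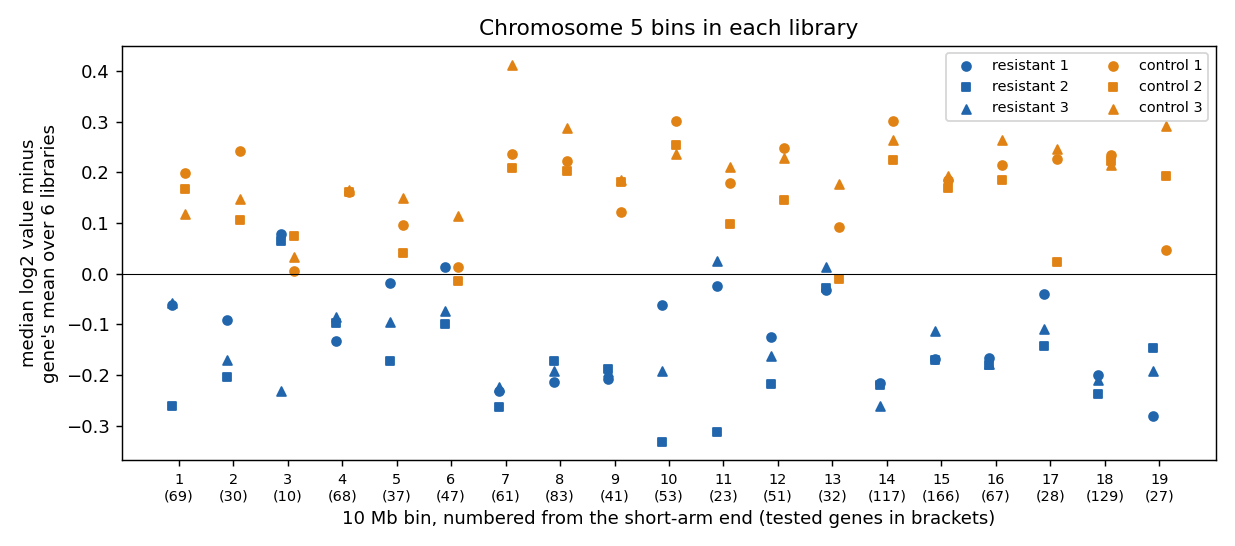
Median over each 10 Mb bin's tested genes of the log2 value minus the gene's mean over 6 libraries, for each library, with bins numbered from the short-arm end and tested genes in brackets. Resistant libraries (blue) lie below controls (orange) without overlap in 16 of 19 bins, and overlap in bins 3, 6 and 13.

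In some bins well and weakly expressed genes differed. From 120 to 130 Mb the 17 genes at a mean of 100 or more had a median of -0.36, while the 15 below 100 had 0.14. From 0 to 10 Mb the values were -0.44 over 31 genes and 0.11 over 38 genes. From 50 to 60 Mb the order was the other way round, with -0.03 over 22 genes at 100 or more and -0.22 over 25 below. Of those 22 genes, 7 were called lower and 5 higher, so the median near 0 covered changes in both directions. Calls in both directions were also common elsewhere at such levels. On the other autosomes 30.5% were called lower and 29.2% higher from 100 to 1000, and 39.7% and 28.3% at 1000 and over. In windows of 25 adjacent tested genes, 1059 of 1115 medians were below 0, from -0.80 to 0.18. In bins of 5 Mb, 30 of the 32 with 10 or more tested genes had medians below 0. The 2 above 0 were 5 to 10 Mb at 0.11 (24 genes) and 120 to 125 Mb at 0.15 (16 genes). In each of these 25% of the genes were called lower. The 27 bins with enough genes at a mean of 50 or more all had medians below 0. These ran from -0.65 to -0.03, the last being that from 55 to 60 Mb.

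The longest stretch of adjacent genes at a mean of 50 or more that were all called lower held 16 genes, from SEPTIN8 to SEC24A (chr5:132750817-134727823). Stretches were picked for their calls after the values were seen. Their log2 fold changes ran from -1.81 to -0.23 with a median of -0.66. Per library, the median over these genes relative to the control mean was -0.61, -0.62 and -0.74 in resistant libraries and -0.04, 0.02 and 0.02 in controls. The stretch held genes of unlike roles: UQCRQ, a subunit of respiratory complex III, VDAC1, the main channel of the outer mitochondrial membrane, HSPA4, a heat shock protein of the HSP110 family, PPP2CA, the catalytic subunit of protein phosphatase 2A, SKP1, a subunit of SCF ubiquitin ligases, and TCF7, a transcription factor of Wnt signalling. TCF7 was lowest, at 63.2, 62.8 and 52.3 in resistant and 184, 229 and 220 in control libraries (-1.81 ± 0.15, SE), and SEC24A, a coat protein of vesicles that leave the endoplasmic reticulum, was least lowered at -0.23 ± 0.07. The size of the fall thus differed widely within 1 stretch, while its common direction was fixed by the way the stretch was picked.

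A further 11 adjacent genes from NPM1 to ATP6V0E1 (chr5:171387116-173035445) were all called lower, with a median of -0.74 and a range of -1.18 to -0.35. NPM1, a nucleolar chaperone of ribosome assembly, had values of 6629, 6110 and 6171 in resistant and 13657, 14342 and 14977 in control libraries. DUSP1, a phosphatase that switches off MAP kinases, was the least lowered of these at -0.35 ± 0.07. With the weaker condition of a log2 fold change below 0, the longest stretch held 26 genes from SLC30A5 to BTF3 (chr5:69093646-73505635), of which 21 were called lower, and it included CCNB1 and the SMN region.

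The longest stretch with no gene called lower held 9 genes from IL31RA to PDE4D (chr5:55851379-60522120), and its median of 0.05 became -0.02 with quantile normalisation and -0.09 with centring on each library's median, where 2 of its genes were called lower. IL6ST, the signalling chain shared by receptors of the interleukin 6 family, was higher at 0.22 ± 0.06, and MAP3K1, a kinase upstream of JNK and ERK, at 0.57 ± 0.08. MAP3K1 had a mean of 944 ± 47.6 in resistant and 635 ± 51.5 in control libraries (SD, n = 3). PLK2, a kinase induced by stress and growth signals, had values of 6003, 4855 and 4609 against 4910, 4678 and 5044, so the groups overlapped (0.07 ± 0.08). Relative to the control mean, the medians over the 9 genes were 0.09, -0.10 and -0.08 in resistant and 0.13, -0.08 and 0.01 in control libraries.

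**Figure D4:**
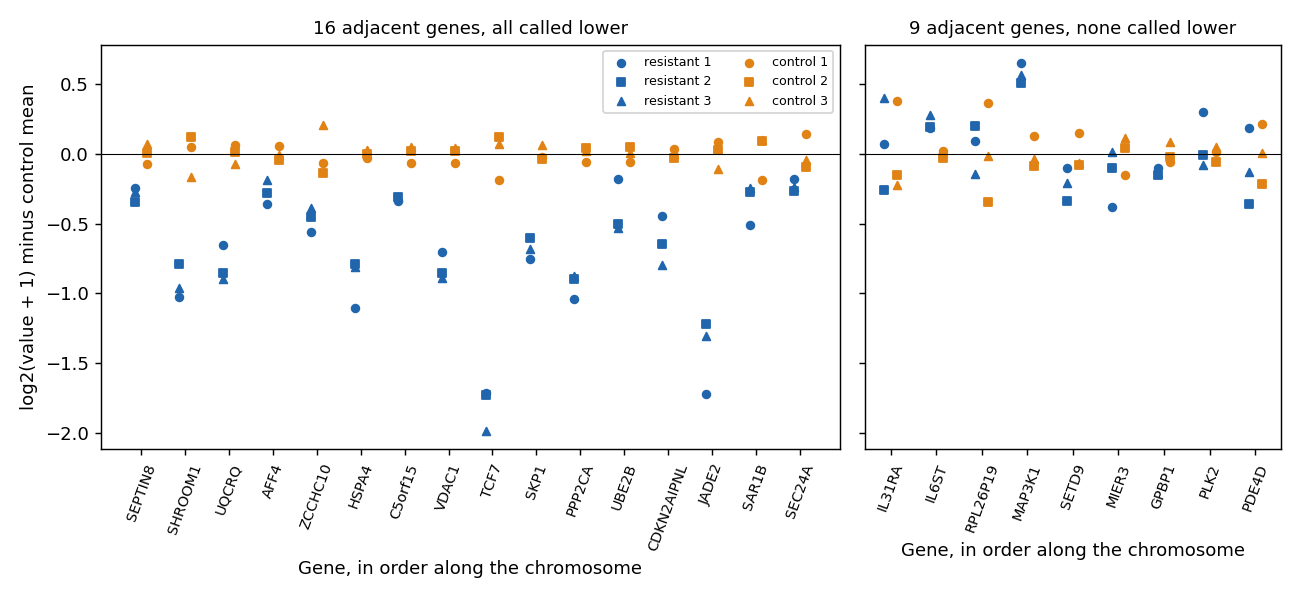
Log2(value + 1) minus the control mean for each library, gene by gene, in the 16 adjacent genes all called lower (left) and the 9 adjacent genes of which none was called lower (right). On the left all resistant libraries (blue) lie below 0, with TCF7 lowest. On the right MAP3K1 and IL6ST lie above 0 in all resistant libraries, SETD9 and GPBP1 below, and the others on both sides.

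By expression level, the median fold change was lower on chromosome 5 than on the other autosomes in each of 4 bands of the mean value. Under 10, chromosome 5 stood at -0.24 (363 genes) and the other autosomes at 0.11. From 10 to 100 the values were -0.29 (238 genes) and 0.16, and from 100 to 1000 they were -0.37 (346 genes) and -0.01. At 1000 and over they were -0.45 (192 genes) and -0.06. The chromosome 5 medians fell from band to band, and the differences from the other autosomes of -0.36, -0.45, -0.36 and -0.39 showed no order by level.

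The share of called genes did change with level. Chromosome 5 genes called lower made up 6.89% under 10, 28.2% from 10 to 100, 60.1% from 100 to 1000 and 77.6% at 1000 and over, and the corresponding shares on the other autosomes were 5.34, 15.6, 30.5 and 39.7%. The median standard error of a gene's fold change was 0.65, 0.29, 0.10 and 0.07 in these bands, so a difference of this size was not detectable gene by gene at low counts. Of the 192 genes at 1000 and over, 149 were called lower and 15 higher. In that band the library medians were -0.21, -0.24 and -0.23 in resistant and 0.23, 0.22 and 0.24 in control libraries. Per kilobase of gene length, the median fold change ran from -0.16 in the lowest to -0.48 in the highest of 4 equal groups of genes, against 0.13 and -0.09 on the other autosomes.

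**Figure D5:**
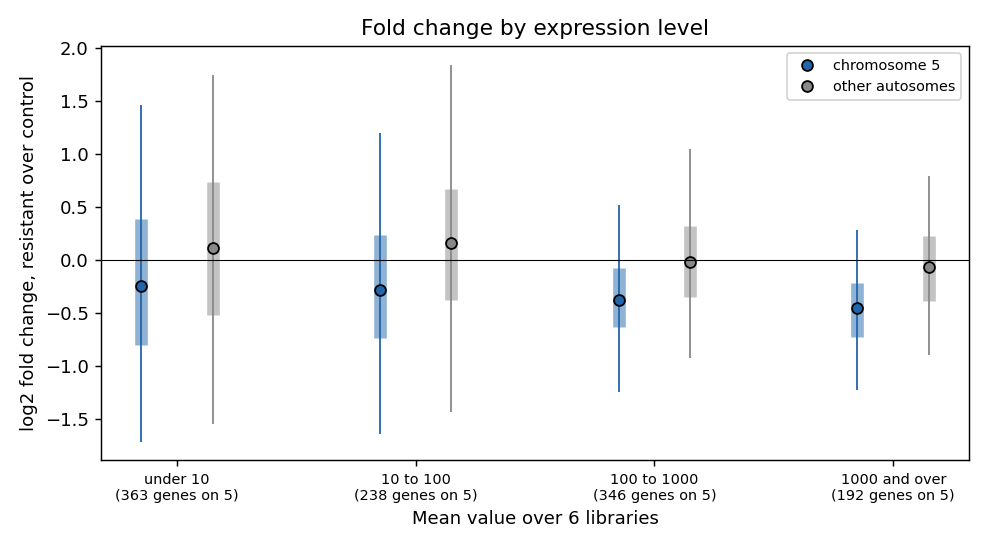
Log2 fold change (resistant over control) by band of the mean value over 6 libraries, for chromosome 5 (blue) and the other autosomes (grey): median (points), middle 50% (bars) and 5th to 95th percentile (lines). The chromosome 5 median is lower in each band, from -0.24 under 10 to -0.45 at 1000 and over.

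By gene type, protein-coding genes of chromosome 5 had a median of -0.39 (696 genes, 55.0% called lower) against -0.00 on the other autosomes (28.0%). Antisense transcripts stood at -0.38 (132 genes) against 0.11, and long intergenic RNAs at -0.32 (101 genes) against 0.14. Processed pseudogenes, which are retrotransposed copies whose reads can come from the parent gene elsewhere, were nearest to 0 at -0.11 (97 genes) against 0.01. Strand use in counting is not given in the sources used here, so antisense genes and the genes they overlap cannot be told apart by reads. The 409 genes that no other gene overlaps had a median of -0.37, and the 730 that overlap another had -0.34.

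Promoter sequence was matched for 726 of the tested chromosome 5 genes. At a mean of 50 or more, genes with a CpG-rich promoter (observed over expected CpG at or over 0.5, the case for 54.0% of all 35116 RefSeq promoters of 300 bases) had a median of -0.43 against -0.04 on the other autosomes. Genes with a CpG-poor promoter had -0.33 against 0.14. The difference from the other autosomes was -0.39 and -0.48, but over all tested genes it was -0.39 and -0.38, so the order turned. The motifs searched, on both strands, were TATAAA (the TATA box, in 11.5% of all promoters), CCAAT (bound by NF-Y, in 34.6%) and GGGCGG (bound by Sp1 and its relatives, in 45.0%). Genes with a TATA box differed from the other autosomes by -0.48 and genes without by -0.39 at a mean of 50 or more, and by -0.39 each over all tested genes. With and without CCAAT the differences were -0.35 and -0.42, and with and without the Sp1 motif they were -0.39 each, again at a mean of 50 or more. Over all tested genes these were -0.37 and -0.41, and -0.40 and -0.37. The motifs can share bases with CpG, since GGGCGG contains one.

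The lists of genes below are read against the chromosome's own shares: 39.4% called lower over all its tested genes (median -0.35), 63.6% at a mean of 50 or more (median -0.41) and 77.6% at 1000 and over (median -0.45). Of 30 genes of cell division and DNA repair, 23 were called lower and 1 higher, with a median of -0.60. At a mean of 50 or more, 22 of 28 were called lower and 1 higher, beside 63.6% lower for the chromosome at that level. CCNB1, the cyclin that drives entry into mitosis, had values of 1341, 1432 and 1304 in resistant and 3894, 3731 and 3830 in control libraries (-1.49 ± 0.06). LMNB1, a component of the nuclear lamina, had 647, 708 and 803 against 1813, 1853 and 1746 (-1.33 ± 0.08). The groups were far apart in both. TRIP13, an ATPase of the spindle checkpoint, fell by 1.20 on the log2 scale, PTTG1, the securin that restrains separase, by 1.15, and KIF20A, a kinesin of cytokinesis, by 1.00. CCNG1, a cyclin induced by p53, was the member called higher, at 1746 ± 65.0 against 1306 ± 123 (SD, n = 3; 0.42 ± 0.07). RAD17, POLK and SKP2 were not called, at -0.11, 0.04 and 0.14.

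Of 22 genes of translation, 20 were called lower and none higher (median -0.65), at a median level of 2123, a band where 77.6% of chromosome 5 genes and 39.7% of other autosomal genes were called lower. NPM1 is described above, and HARS1, the cytosolic histidyl-tRNA synthetase, had 731, 765 and 753 against 1597, 1528 and 1476 (-1.03 ± 0.07). MRPL36 of the mitochondrial ribosome fell by 1.10 on the log2 scale, and RPS14 and RACK1 of the cytosolic ribosome fell by 0.64 and 0.52. RPL37 and RPS23, also ribosomal proteins, were the members not called. RPL37 had 11888, 8784 and 8391 against 11766, 11053 and 10801, so that resistant library 1 lay above every control. Without that library its value was -0.38 and it was called lower. RPL37 was also called lower with median centring and with the replicate number as a block.

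All 7 genes of mitochondrial respiration, at a median level of 989, were called lower (median -0.69), beside 60.1% of chromosome 5 genes from 100 to 1000: SDHA of complex II, NDUFS4, NDUFS6 and NDUFA2 of complex I, its assembly factor NDUFAF2, UQCRQ and COX7C. NDUFS6 had 756, 737 and 571 in resistant and 1348, 1292 and 1232 in control libraries (-0.92 ± 0.09), and COX7C, of complex IV, changed least at -0.43 ± 0.08. Of 11 genes of protein folding and turnover, 10 were called lower (median -0.68), at a median level of 2197 where 77.6% of chromosome 5 genes were. CCT5, a subunit of the chaperonin that folds actin and tubulin, had 4114, 4240 and 4224 against 9470, 9640 and 9928 (-1.21 ± 0.06). HSPA9, the mitochondrial Hsp70, had 3805, 3589 and 3674 against 8058, 8044 and 8067 (-1.13 ± 0.06). These values left a wide gap between the groups. CANX, a chaperone of the endoplasmic reticulum, fell by 0.80 on the log2 scale and SQSTM1, the autophagy receptor p62, by 0.94, while DNAJC18 was not called (-0.25 ± 0.13). With median centring DNAJC18 was called lower.

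Chromatin and RNA-processing genes had a median of -0.45, with 19 of 22 annotated entries called lower and 1, the splicing kinase CLK4, higher at 0.28 ± 0.11 with overlapping groups, a call lost with median centring. At the list's median level of 1060, 77.6% of chromosome 5 genes were called lower, so the count is near the chromosome's share. HNRNPAB, an RNA-binding protein, had 1441, 1803 and 1752 against 4310, 4255 and 3984 (-1.33 ± 0.08), and BRD8, a subunit of the NuA4 acetyltransferase complex, fell by 1.18 on the log2 scale. MATR3 has 2 overlapping entries in the annotation, so its reads could be split between them and its values are uncertain. Of 21 metabolic genes, 11 were called lower and 2 higher (median -0.37). At a mean of 50 or more, 11 of 17 were called lower and 1 higher (median -0.44). The chromosome at that level had 63.6% lower and a median of -0.41. PRKAA1, a catalytic subunit of AMP-activated kinase, was not called at -0.11 ± 0.07, and GFPT2 stood at -0.02 ± 0.10. With median centring PRKAA1 was called lower.

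Receptors, ligands and signalling genes moved in both directions, with 10 of 21 called lower and 6 higher. The median of -0.35 equals that of the chromosome, of whose genes 39.4% were called lower. At a mean of 50 or more, 8 of 15 were called lower and 6 higher (median -0.35). The chromosome at that level had 63.6% lower and a median of -0.41. The list held the gene with the largest fall on the chromosome at a mean of 50 or more. It was EGR1, an immediate-early transcription factor of ERK signalling, with 590, 449 and 401 in resistant and 10228, 10007 and 9540 in control libraries (-4.39 ± 0.12). EGR1 and F2RL1, a protease-activated receptor outside the list at -4.03 ± 0.35, are named after their values were seen. SPRY4, an inhibitor of receptor tyrosine kinase signalling, had 40.8, 41.5 and 51.3 against 423, 482 and 491 (-3.36 ± 0.14). IL7R, the receptor chain for interleukin 7, had 885, 773 and 782 against 4038, 3894 and 3971 (-2.29 ± 0.07). For all 3 the groups were many times their spread apart. Among the genes called higher were LIFR, OSMR and IL6ST, receptor chains of the interleukin 6 family, at 0.71 ± 0.07, 0.24 ± 0.06 and 0.22 ± 0.06, the last 2 of which were not called with median centring. PIK3R1, the regulatory subunit of PI3 kinase, had 295, 286 and 333 against 223, 219 and 215 (0.47 ± 0.11), beside CCNB1 and the other lowered genes of its bin.

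Genes of matrix and adhesion were the 1 list with a positive median, 0.15 over 21 genes, with 9 called higher and 6 lower, where 8.08% of chromosome 5 genes were called higher and 20.4% of all tested genes. With quantile normalisation the median was 0.07. With median centring it was 0.01, with 7 called higher and 7 lower. SPARC, a secreted matrix glycoprotein, had 11651, 10060 and 9954 against 6522, 6717 and 6530 (0.68 ± 0.06), and TGFBI, a matrix protein induced by TGF-beta, stood at 0.64 ± 0.07. ADAMTS2, which trims procollagen, had 354, 293 and 299 against 88.3, 68.6 and 76.1 (2.01 ± 0.14). ITGA1 and ITGA2, the neighbouring genes for collagen-binding integrin chains, moved in opposite directions. ITGA1 (chr5:52787896-52959210) had 1245, 1237 and 1367 against 256, 219 and 243 (2.42 ± 0.09). ITGA2 (chr5:52989326-53094779) had 810, 848 and 896 against 2514, 2388 and 2310 (-1.50 ± 0.07). LOX, which cross-links collagen, had 28830, 16288 and 16848 against 12236, 12374 and 11833. Resistant library 1 was far above the others there, and the gene was not called (0.71 ± 0.26), while without that library it was called at 0.45. LOX was also called by DESeq2 and with quantile normalisation. VCAN, a large matrix proteoglycan, fell by 1.00.

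The protocadherins, adhesion proteins of the cell surface encoded in 3 tandem clusters whose transcripts share 3′ exons within the alpha and gamma clusters, had a median of -0.16 beside -0.35 for the chromosome. Of 52 tested genes 14 were called lower, 4 higher and 34 not called, beside 39.4% lower for the chromosome and 21.1% for all tested genes. At a mean of 50 or more, 12 of 41 were called lower and 2 higher (median -0.19). At that level 63.6% of chromosome 5 genes (median -0.41) and 32.1% of other autosomal genes were called lower. With median centring 22 of the 52 were called lower and 2 higher, with a median of -0.29. The alpha cluster had a median of 0.10 over 15 genes, which became -0.04 with quantile normalisation and -0.03 with median centring. The beta cluster had -0.09 over 15 and the gamma cluster -0.35 over 22. PCDHGA8 had 53.0, 76.6 and 69.1 against 180, 195 and 176 (-1.47 ± 0.16), and PCDHGA12 stood at -1.14 ± 0.13. PCDHGB5, in the same cluster, had 427, 442 and 536 against 524, 489 and 441, so the groups overlapped. How reads in shared exons were assigned is not given in the sources used here, so the split between members is uncertain.

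In the distal short arm 19 of 28 genes were called lower and 4 higher (median -0.46). At a mean of 50 or more, 18 of 25 were called lower and 4 higher (median -0.48). The chromosome at that level had 63.6% lower and a median of -0.41. TERT, the catalytic subunit of telomerase, had a mean of 38.0 ± 2.19 in resistant and 73.2 ± 8.47 in control libraries (SD, n = 3; -0.92 ± 0.20), and its neighbour CLPTM1L stood at -0.48 ± 0.06. TPPP, a tubulin-polymerising protein, was higher, at 223, 166 and 142 against 99.6, 74.8 and 53.0 (1.23 ± 0.21), and AHRR, a repressor of the aryl hydrocarbon receptor, stood at 0.67 ± 0.10. SRD5A1, a steroid 5-alpha reductase, had 1822, 1560 and 1688 against 1670, 1581 and 1600 and did not differ beyond its spread (0.06 ± 0.07).

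Around the cytokine genes of the long arm, 6 of 14 tested genes were called lower and 2 higher (median -0.34), beside 39.4% and -0.35 for the chromosome. At a mean of 50 or more, 6 of 12 were called lower and 2 higher (median -0.34). The chromosome at that level had 63.6% lower and a median of -0.41. With median centring 8 of the 14 were called lower and 0 higher. CSF2, the growth factor GM-CSF, had 215, 337 and 302 against 1243, 1350 and 1307 (-2.21 ± 0.13, named after its values were seen), and SLC22A4, a transporter of organic cations, had 122, 169 and 148 against 422, 380 and 397 (-1.45 ± 0.12). Between them lie P4HA2 and PDLIM4, at 0.27 ± 0.08 and 0.18 ± 0.07, which were not called higher with median centring. IRF1, a transcription factor of interferon responses, was not called, at 868, 914 and 835 against 745, 816 and 760 (0.17 ± 0.08). With quantile normalisation it was called higher. On the deposited values, this part of the chromosome thus changed direction over short distances. Of its genes called lower, SEPTIN8, HSPA4, TCF7 and SKP1 are also counted in the stretch from SEPTIN8 to SEC24A described above. That stretch covers only genes at a mean of 50 or more.

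In the duplicated SMN region 4 of 9 genes were called lower and none higher (median -0.42), near the chromosome's share of 39.4%. SMN1 and SMN2, near-identical copies that encode a factor of snRNP assembly, cannot be told apart by most reads. SMN1 had 442, 365 and 312 in resistant and 214, 765 and 585 in control libraries, and the sum of both copies was 623, 502 and 477 against 371, 945 and 799, with overlapping groups. Control library 1 was the low one, and without it SMN1 stood at -0.86 and was called lower. The 3 annotated copies of GTF2H2, a subunit of the repair factor TFIIH, summed to 248, 296 and 306 against 449, 473 and 490, without overlap. SERF1A and SERF1B, a further pair of copies, summed to 43.9, 71.1 and 21.7 against 86.25, 58.2 and 53.0, and overlapped although SERF1B alone was called lower. The cadherins of the short arm were nearly silent: 1 of 5, CDH18, could be tested, at a mean of 1.49.

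Developmental transcription factors had 5 of 10 tested genes called lower and none higher (median -0.53). The shares called lower were 39.4% for the chromosome and 21.1% for all tested genes. At a mean of 50 or more, 3 of 7 were called lower and none higher (median -0.15). The chromosome at that level had 63.6% lower and a median of -0.41. PITX1, a homeobox factor, had 494, 581 and 645 against 1088, 1099 and 1026 (-0.91 ± 0.09). NR3C1, the glucocorticoid receptor, had 3467, 2624 and 2670 against 2887, 2857 and 3008, so the groups overlapped and resistant library 1 was the highest (-0.01 ± 0.09). Without that library it stood at -0.14 and was called lower. NR2F1, a nuclear receptor of development, stood at 0.01 ± 0.09. POU4F3, counted among the 5 called lower, was at 0 in all 3 resistant libraries and at a mean of 2.35 in controls. Its fold change is not given, since its values are near 0.

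Genes that went against the shift lay on both arms. Among protein-coding genes at a mean of 50 or more, TENM2, an adhesion protein of the teneurin family, had the largest rise. It stood at 501, 460 and 481 in resistant and 93.4, 66.5 and 57.8 in control libraries (2.74 ± 0.15). NPR3, the clearance receptor for natriuretic peptides, had 875, 659 and 751 against 127, 147 and 145 (2.43 ± 0.11). STK32A, a kinase gene, had 124, 104 and 107 against 37.0, 34.3 and 42.4 (1.54 ± 0.19), and its neighbour DPYSL3, a microtubule-associated protein, had 693, 678 and 688 against 2635, 2684 and 2623 (-1.95 ± 0.07). CCL28, a mucosal chemokine, CXXC5, a zinc finger protein of Wnt signalling, and OTULINL stood at 1.18 ± 0.16, 1.13 ± 0.08 and 1.39 ± 0.20. For each of these raised genes the resistant libraries lay above all controls.

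Other bins were led by POLR3G, a subunit of RNA polymerase III, at 175, 192 and 225 against 607, 593 and 696 (-1.68 ± 0.11), CARD6 at -1.48 ± 0.10 and CD74, the invariant chain of MHC class II, at 1222, 1210 and 1093 against 3329, 3553 and 3194 (-1.51 ± 0.07). ENC1, FER, WDR36 and MGAT1, the first of their bins, stood at -0.94, -0.98, -0.77 and -0.61. In the opposite direction, ARRDC3, PAM, TRIM36, ATP6AP1L and PPIC stood at 0.35, 0.33, 1.02, 0.60 and 0.24. ATP6AP1L lost its call without control library 2 (0.48), and PPIC without resistant library 1 or 2 or control library 1 or 3, at 0.19, 0.24, 0.17 and 0.26. Both lost their calls with limma without trend, and PPIC also by DESeq2 and with median centring. PJA2, a ubiquitin ligase, was the gene at a mean of 1000 or more nearest to 0, at 2427, 2223 and 2267 against 2346, 2276 and 2329. Its groups overlapped (-0.01 ± 0.06), while FER, in the same bin, fell.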

How the data were processed

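Total RNA of 6 libraries (3 H1975/OSI, 3 NCI-H1975) was sequenced by the submitters, and per-gene values on GRCh38 were deposited (build per the submitters' processing notes). No aligner or counter is named in the labels or headers. The deposited signal of each gene is a normalised value. Dividing it by the value of 1 read, recovered from the smallest steps, gave whole reads (within 0.001) for 100% of values in each library. The value of 1 read equalled 1 divided by the library's DESeq2 size factor, so the authors' scaling was of that kind. Depth was 15174126 to 16588479 reads per library. Gene length, in bases, was also deposited and served only for the values per kilobase. Values were tested with limma 3.58.1 (trend, robust) in R 4.3.3 on log2(value + 1), for the 24560 genes that reached 1 in 3 or more libraries. Tests were two-sided, p-values were adjusted by Benjamini and Hochberg's method, and genes under 0.05 were called.

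Gene starts were placed in 10 Mb bins, arms were split at 48 Mb, and levels were banded by the mean over 6 libraries. Genes were named by a rule: per bin, the protein-coding gene at a mean of 50 or more with the smallest adjusted p-value in the bin's direction and that with the largest change the other way. Each of 14 gene lists added the 2 smallest adjusted p-values and the highest gene not called. Some genes that the rule names are not reported here. The members and lists were chosen with earlier results of these data known. The limma fit was tried on simulated data, with 100 genes changed 2-fold and 100 changed 1.5-fold. It called 96 and 55 of them, and 19 unchanged genes. The simulation held no library as unlike its group as resistant library 1. Quantile normalisation, median centring, other filters and pseudocounts, limma without trend, a replicate block, edgeR 4.0.16 and DESeq2 1.42.0 on the recovered reads, and leaving out each library were the alternatives, with 3 subsets of genes added after seeing the data. Promoters came from RefSeq (GRCh38.p14), taking for each symbol the start nearest to the files' own.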

Additional observations from a re-analysis of the deposited data

How the results depend on the processing

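The count of chromosome 5 genes called lower stayed between 348 (limma without trend) and 509 (median centring) under all alternatives, and between 402 and 460 when 1 library was left out. On the recovered reads, edgeR called 450 lower and 91 higher, and DESeq2 417 and 68. The count called higher was 60 without trend, and 73 to 88 with 1 library left out. The median of chromosome 5 was -0.48 with median centring, which moved the median of all genes to -0.12 and the calls over all genes to 27.1% lower and 15.1% higher. It was -0.38 with a minimum of 5, -0.31 with no filter, -0.39 with a pseudocount of 0.1 and -0.41 for genes at a mean of 50 or more, and ran from -0.38 to -0.33 with 1 library left out. Its difference from the other autosomes was -0.34 with no filter, -0.42 with a pseudocount of 0.1 and -0.42 to -0.36 with 1 library left out. Bin medians were below 0 in 276 of 285 values over all alternatives. Same-numbered libraries did not deviate together (correlations of -0.015, 0.005 and 0.020), and with the replicate number as a block 449 genes were called lower and 93 higher.

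Genes near 0 changed sign. NR3C1 was 0.0011 by DESeq2, 0.0024 by edgeR, 0.0757 with quantile normalisation and -0.140 to 0.0609 with 1 library left out. PJA2 was 0.0717 with quantile normalisation and -0.0454 to 0.0178 with 1 library left out. With median centring IL31RA, PLK2 and SRD5A1 were -0.0639, -0.0632 and -0.0727. With 1 library left out IL31RA ran from -0.0953 to 0.261, PLK2 from -0.0435 to 0.147, PCDHGB5 from -0.154 to 0.00892 and SMN1 from -0.857 to 0.0608. The cause of these changes was not tested. Depth limits the genes under a mean of 10, where the median standard error was 0.65.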
